A study of Mus musculus with 6 samples.

Results

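The intercalated cell genes examined here were 10 genes of acid-base transport, chosen by name from what is known of the cell type. Earlier results of these data were known when these genes were chosen. They were the bicarbonate exchangers Slc4a1, Slc26a4 and Slc4a9, the transcription factor Foxi1, the V-ATPase subunits Atp6v1g3, Atp6v0d2, Atp6v1b1 and Atp6v0a4, and the ammonia channels Rhcg and Rhbg. All 10 had a row among the 24422 genes of the count tables, and all 10 could be tested. RNA was counted per gene in 6 whole kidneys of C57BL/6 mice at postnatal day 13, from animals on a diet with 220 ppm iron. The 3 Control libraries came from kidneys labelled as wild type. The 3 TfR1 knockout libraries came from Tfr1f/f kidneys with Six2Cre, in which exons of the transferrin receptor gene are flanked by loxP sites and are removed where the recombinase is active. Six2 drives Cre in the progenitors that form the nephron epithelium, so the deletion was aimed at the nephron and not at stroma, vessels or the ureteric bud, and the study describes epithelial cells that escaped it. The labels do not give the sex of the animals.

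Intercalated cells are the acid-base cells of the collecting duct and the connecting tubule. Type A cells secrete protons through an apical V-ATPase and return bicarbonate to the blood through the exchanger AE1 (Slc4a1), whereas type B cells secrete bicarbonate through the apical exchanger pendrin (Slc26a4) and carry AE4 (Slc4a9) on the basolateral side. The forkhead factor Foxi1 is needed for the cells to form and is known to act on several of these genes. The collecting duct arises from the ureteric bud, while the connecting tubule, which also holds intercalated cells, arises largely from the nephron progenitors.

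The libraries held between 16591156 and 22898008 counts, and the rarest member count in any library was 141, so that counting error was small beside the spread between kidneys. The targeted gene, Tfrc, overlapped between the groups and did not pass the test (log2 fold change 0.11, SE 0.29, DESeq2 adjusted p 0.853), and so does not check the labels. Control replicate 3 stood apart from the other Control libraries, with 50331 normalized counts summed over 6 thick ascending limb markers against 101567 and 113985. In knockout kidneys all 6 of these markers were lower in DESeq2 (median log2 fold change -1.95), as were 4 of 6 of the distal convoluted tubule (-2.02) and 3 of 7 of the proximal tubule (-0.92), of which 1 was higher, while 9 of 16 macrophage markers were higher and 1 was lower (1.25). The summed macrophage markers lay between 3658 and 6281 normalized counts in Control libraries and between 9381 and 11813 in knockout libraries, and the part of these shifts in the values of the members was not tested. In RNA from a whole kidney, fewer cells of a type and less RNA per cell cannot be told apart.

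The members did not move as a block. The 3 bicarbonate exchangers fell in both DESeq2 and edgeR, and Foxi1 and both ammonia channels passed neither test. The V-ATPase subunits split between a rise, a fall and no call in DESeq2, and 0 of the 4 passed in edgeR. At an adjusted p under 0.05 (DESeq2, adjusted over all genes tested), 1 member rose and 4 fell, against 7.74% of 16509 tested genes higher and 7.18% lower, or 14.9% in either direction. With a fold change of at least 2 as well, 4 members passed, against 8.87% of genes tested. edgeR's quasi-likelihood test called 0 members higher and 3 lower, against 3.22% and 2.8% of its 15308 genes, or 6.02% in either direction. At an unadjusted p under 0.05, edgeR counted 2 members higher and 5 lower, against 12.8% and 13.0% of its genes, and limma-voom also called 0 members higher. The same 3 genes passed edgeR with a fold change of at least 2, against 4.79% of genes. In 2 members every knockout library lay above every Control library and in 4 every one lay below, against 16.9% of genes tested in each direction and 33.7% in either. The median log2 fold change of the 10 members was -0.58, beside 0.01 over all genes tested.

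**Figure D1:**
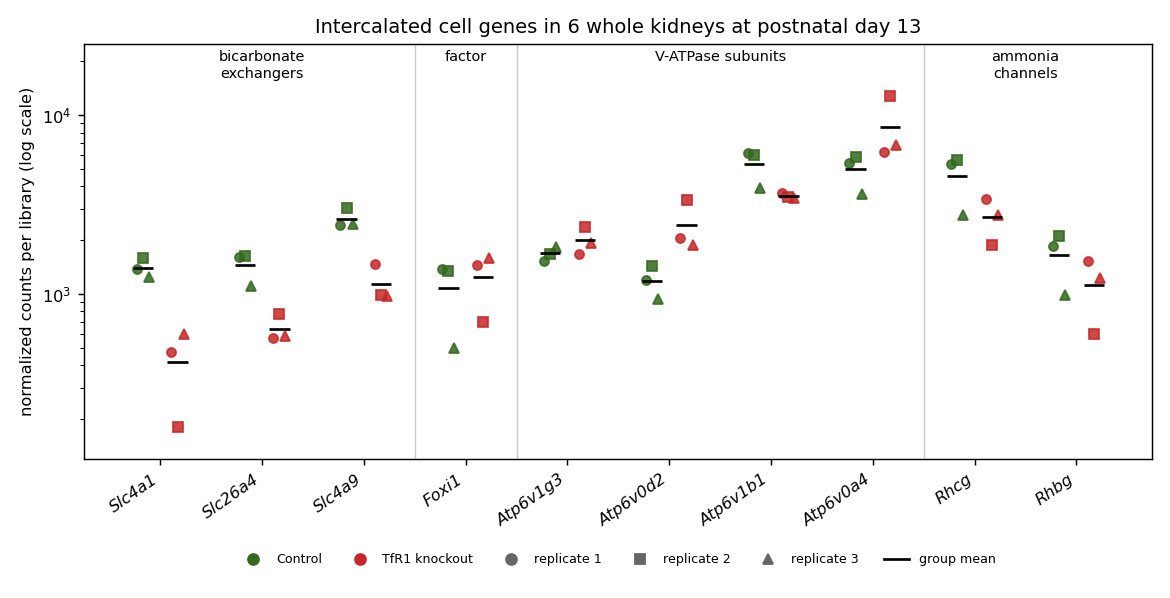
Normalized counts (log scale) of the 10 members, grouped by role, in each of 6 kidneys. Green marks Control and red TfR1 knockout, the shape gives the replicate, and the black bar is the group mean of 3 libraries. The red points lie below the green ones for the 3 exchangers and Atp6v1b1, lie above them for Atp6v0d2 and Atp6v0a4, and overlap them for the other 4 genes.

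Slc4a1 (chromosome 11, 102210138 to 102227517, minus strand, mm9) encodes AE1, the basolateral chloride-bicarbonate exchanger of type A cells, which is also the band 3 protein of red cells. Control replicates 1 to 3 held 1388, 1584 and 1245 normalized counts, against 473, 180.4 and 599.7 in knockout replicates 1 to 3. Every knockout library lay below every Control library, and knockout replicate 2 was the lowest by a wide margin. The means were 1406 ± 170.1 and 418 ± 215 (SD, n = 3 each), and knockout kidneys held 29.8% of the Control level. The log2 fold change was -1.75 (SE 0.39, DESeq2 adjusted p 2.49e-04, edgeR adjusted p 0.0452). Without knockout replicate 2 it was -1.39.

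Since Slc4a1 is also a red cell gene, 14 erythroid genes were read beside it. The globin genes Hba-a1, Hba-a2, Hbb-b1 and Hbb-b2 were listed at 0 in all 6 libraries. Alas2, also on the erythroid list, held 1222 to 5399 normalized counts in the same libraries, so the zeros cannot be read as absent red cell RNA. Of the 9 erythroid genes tested 1 was lower and 8 did not pass (Rhd, log2 fold change -2.99, DESeq2 adjusted p 0.0337, with at most 44.1 normalized counts in a library and groups that overlapped, named because it was the single call). The median log2 fold change of the 9 genes was -0.76. The summed erythroid counts overlapped between the groups, at 2609 to 6336 in Control and 2278 to 7060 in knockout libraries. Within Control the library with the highest erythroid sum, replicate 3, had the lowest Slc4a1 count, and within knockout the library with the highest sum, also replicate 3, had the highest Slc4a1 count. The part of erythroid RNA in the Slc4a1 value was not tested.

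Slc26a4 (chromosome 12, 32204692 to 32244834, minus strand) encodes pendrin, the apical chloride-bicarbonate exchanger of type B and non-A, non-B cells. Across Control replicates 1 to 3 it had 1609, 1627 and 1114 normalized counts, against 568, 770.2 and 585 across knockout replicates 1 to 3. The groups did not overlap, and Control replicate 3, the lowest of its group, still lay well above the highest knockout library. Knockout kidneys held 44.1% of the Control level, with means of 1450.2 ± 291 and 641 ± 112 (SD, n = 3 each). The log2 fold change was -1.18 (SE 0.24, DESeq2 adjusted p 2.46e-05, edgeR adjusted p 0.0189).

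Slc4a9 (chromosome 18, 36687805 to 36715909, plus strand) encodes AE4, the basolateral partner of pendrin in type B cells. Control replicates 1 to 3 held 2424, 3019 and 2454 normalized counts, and knockout replicates 1 to 3 held 1475, 989 and 972. The highest knockout library, replicate 1, was below the lowest Control library. With means of 2633 ± 335 and 1145 ± 285 (SD, n = 3 each), the knockout level was 43.5% of Control. The log2 fold change of -1.20 (SE 0.23) passed both tests (DESeq2 adjusted p 1.1e-05, edgeR adjusted p 0.0195).

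A ratio of 2 genes within a library does not depend on how libraries are scaled, and it was used to set the type A exchanger beside the type B exchangers. The log2 ratio of Slc4a1 to Slc26a4 was -0.21, -0.04 and 0.16 in the Control kidneys, by replicate, and -0.26, -2.09 and 0.04 in the knockout kidneys. The groups overlapped, and knockout replicate 2 alone held a far lower ratio. The difference of the means was -0.74 with all libraries and -0.08 without that replicate. The log2 ratio of Slc4a9 to Slc26a4 was 0.59, 0.89 and 1.14 in Control and 1.38, 0.36 and 0.73 in knockout kidneys, which again overlapped. No test was run on the ratios, because 3 libraries against 3 cannot give an exact two-sided permutation p below 0.1.

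Foxi1 (chromosome 11, 34104338 to 34108089, minus strand) is the forkhead transcription factor of intercalated cells. In Control replicates 1 to 3 the normalized counts were 1388, 1352 and 502, and in knockout replicates 1 to 3 they were 1461, 696 and 1583. Each group held 1 low library, Control replicate 3 and knockout replicate 2, and the other 4 lay close together. The means were 1080.3 ± 501 and 1246 ± 481 (SD, n = 3 each), and the log2 fold change was 0.21 with a 95% interval from -0.65 to 1.06 (DESeq2 adjusted p 0.807, edgeR adjusted p 0.804). The interval reaches from a marked fall to a doubling, so the test does not show that the level was the same. Without Control replicate 3 the sign turned (log2 fold change -0.14, DESeq2 adjusted p 0.849).

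Across the 6 libraries, the genes whose log2 counts were most like those of Foxi1 were Slc35e1, Rhobtb2, Emx2, Trim36 and Tesk1, with Pearson r from 0.989 to 0.997 among 12104 genes compared. All 5 were lowest in Control replicate 3, and knockout replicate 2 was the lowest knockout library in each, so the likeness rests on those 2 libraries. Among the members, Rhbg (r 0.71) and Rhcg (r 0.56) were most like Foxi1 and Atp6v1g3 (r -0.51) least, while the 3 exchangers had r between -0.10 and 0.17. These values describe 6 libraries that share depth and group, and no p was computed.

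Promoters of the members were searched for the letters that forkhead factors are known to bind. RefSeq promoters (GRCm38.p6, not the mm9 build of the counts) were available for 6 of the 10 members, namely Slc26a4, Foxi1, Atp6v1g3, Atp6v1b1, Atp6v0a4 and Rhcg. Slc4a1, Slc4a9, Atp6v0d2 and Rhbg were not used. The forkhead letters TGTTTAC, searched on both strands in the 250 bases before the start, were in 1 of the 6, Atp6v1b1, and in 3.17% of 32851 promoters. A second forkhead spelling, TATTTAC, was in 0 of the 6 and in 2.73% of promoters. Both Atp6v1b1 and Slc26a4 were lower in DESeq2, of which only Slc26a4 also passed in edgeR, and 1 promoter holds the letters. For this reason the sequences of Atp6v1b1 (chr6:83742767-83743016, plus strand) and Slc26a4 (chr12:31559985-31560234, minus strand) are shown 5′ to 3′, with the match in capitals.
Atp6v1b1: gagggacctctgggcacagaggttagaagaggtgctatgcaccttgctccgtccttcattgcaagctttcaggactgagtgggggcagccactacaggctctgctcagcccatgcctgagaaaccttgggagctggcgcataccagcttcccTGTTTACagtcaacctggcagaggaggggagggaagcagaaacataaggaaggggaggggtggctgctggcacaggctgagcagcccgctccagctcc
Slc26a4: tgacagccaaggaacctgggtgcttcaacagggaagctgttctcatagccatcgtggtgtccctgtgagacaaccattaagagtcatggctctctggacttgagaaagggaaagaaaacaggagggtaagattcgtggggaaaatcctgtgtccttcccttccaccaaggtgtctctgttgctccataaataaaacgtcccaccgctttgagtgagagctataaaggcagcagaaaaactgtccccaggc
The capitals in Atp6v1b1 begin 98 bases before the start, and the Slc26a4 window holds neither spelling. A match is a description of letters and not of binding, and the missing letters in the other 5 windows say nothing of where Foxi1 acts.

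The V-ATPase is the proton pump of type A and type B cells, built from a V1 sector that splits ATP and a V0 sector that lies in the membrane. Intercalated cells use particular isoforms of several subunits, and the 4 members are of this kind. They diverged, with 1 higher, 1 lower and 2 not past the test in DESeq2, and 0 past edgeR's test (2 higher and 1 lower at an unadjusted p under 0.05, a threshold that 12.8% and 13.0% of all genes passed).

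Atp6v1b1 (chromosome 6, 83693011 to 83708803, plus strand) encodes B1, an isoform of V1 subunit B that intercalated cells use. Whether other kidney cells gave part of its counts was not tested. By replicate, Control kidneys held 6181, 5957 and 3932 normalized counts and knockout kidneys 3668, 3511 and 3453. The knockout libraries were nearly alike and all below Control, but Control replicate 3 was close to them. Means of 5357 ± 1239 and 3544 ± 112 (SD, n = 3 each) gave a log2 fold change of -0.60 (SE 0.22), which passed in DESeq2 (adjusted p 0.0449) and not in edgeR (adjusted p 0.106). The call was lost when Control replicate 1 or 2, or any of the knockout libraries, was left out (DESeq2 adjusted p 0.071 to 0.294) and was firmer without Control replicate 3 (DESeq2 adjusted p 4.7e-07).

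Atp6v0d2 (chromosome 4, 19803988 to 19849752, minus strand) encodes d2, a V0 subunit of intercalated cells that macrophages and osteoclasts also use. The 3 Control libraries, by replicate, had 1195, 1436 and 934 normalized counts, and the 3 knockout libraries had 2049.5, 3361 and 1890.0. Every knockout library was above every Control library, with replicate 2 the highest. The means were 1188 ± 251 and 2434 ± 807 (SD, n = 3 each), a 2.05-fold difference. The log2 fold change was 1.03 (SE 0.29), which passed in DESeq2 (adjusted p 0.00502) and missed the threshold in edgeR (adjusted p 0.0586) and limma-voom (adjusted p 0.0583). Of 16 macrophage markers 9 were higher in the same knockout libraries (DESeq2), 1 was lower and 6 did not pass. The largest changes among the 9 were those of Cd14 (log2 fold change 3.08, DESeq2 adjusted p 1.04e-06), Itgam (log2 fold change 2.44, adjusted p 5.77e-07), Lyz2 (log2 fold change 1.81, adjusted p 4.89e-07) and C1qc (log2 fold change 1.56, adjusted p 9.09e-05). Of the 9 that were higher, 4 had their highest count in knockout replicate 2, as Atp6v0d2 did, 4 in replicate 1 and 1 in replicate 3. Most of the 6 that did not pass had their lowest knockout count in replicate 2. The sum over all 16 was highest in replicate 1. Their part in the Atp6v0d2 value was not tested.

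Atp6v0a4 (chromosome 6, 37998483 to 38074586, minus strand) encodes a4, an isoform used by intercalated cells of the V0 subunit through which protons pass. The part of other kidney cells in its counts was not tested either. Control replicates 1 to 3 held 5423, 5876 and 3636 normalized counts and knockout replicates 1 to 3 held 6248, 12789 and 6851. The groups did not overlap, with knockout replicate 2 far above the other libraries and means of 4978 ± 1184 and 8629 ± 3615 (SD, n = 3 each). The log2 fold change of 0.79 (SE 0.33, 95% interval 0.15 to 1.44) did not pass (DESeq2 adjusted p 0.0849, edgeR adjusted p 0.172). It was 0.40 without knockout replicate 2, and it passed without knockout replicate 1 (DESeq2 adjusted p 0.026). In the mm9 annotation the exons of Atp6v0a4 share 259 bases with D630045J12Rik on the same strand and 62 bases with Tmem213 on the other, and the strand setting of the counting is not given in the sources used here, so reads from these overlaps may be counted for either gene or for none. D630045J12Rik had a log2 fold change of 0.60 (DESeq2 adjusted p 0.0496, edgeR adjusted p 0.0991).

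Atp6v1g3 (chromosome 1, 140170315 to 140186037, plus strand) encodes G3, the stalk subunit of V1 in intercalated cells. It differed little between libraries, with 1537, 1686 and 1841 normalized counts in the Control kidneys, by replicate, and 1686, 2359 and 1942 in the knockout kidneys. The groups overlapped at their edges, with means of 1688 ± 152 and 1996 ± 340.0 (SD, n = 3 each). The log2 fold change was 0.24 with a 95% interval from -0.14 to 0.62 (DESeq2 adjusted p 0.44, edgeR adjusted p 0.386).

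The renal isoforms were then read as a share of all isoforms of the same subunit within a library, per base of merged exon, a measure chosen after the values were seen. B1 made up 75.1%, 74.0% and 73.9% of subunit B in the Control kidneys, by replicate, and 63.1%, 56.2% and 61.5% in the knockout kidneys. The groups did not overlap. The partner Atp6v1b2, the B2 isoform used throughout the body, did not pass the test (log2 fold change 0.35, DESeq2 adjusted p 0.332). Yet every knockout library (5897 to 7548 normalized counts of Atp6v1b2) lay above every Control library (3830 to 5776), as did 16.9% of all genes tested. The share depends on the counts of both genes. The share of d2 in subunit d was 25.8%, 29.4% and 25.3% in Control and 37.9%, 50.1% and 38.5% in knockout kidneys, also without overlap, beside a log2 fold change of 0.01 for the partner Atp6v0d1 (DESeq2 adjusted p 0.979). Within the same kidneys, B1 thus held a smaller share of its subunit and d2 a larger share than in Control. These shares are computed from the same counts as the fold changes above and are not separate support for them. The share of G3 was 16.5%, 18.1% and 18.5% in Control and 19.7%, 21.6% and 23.8% in knockout kidneys, a small shift without overlap.

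The share of a4 in subunit a was 60.5%, 63.2% and 54.2% in Control and 53.6%, 72.7% and 59.2% in knockout kidneys. These overlapped. Atp6v0a1 (log2 fold change 0.60, DESeq2 adjusted p 0.0122, edgeR adjusted p 0.0619) and Tcirg1 (log2 fold change 1.03, DESeq2 adjusted p 1.48e-05, edgeR adjusted p 0.0195), which encode the a1 and a3 isoforms, were higher in DESeq2. Tcirg1 is the isoform of macrophages and osteoclasts. C2 (Atp6v1c2), another isoform of renal intercalated cells, made up 32.0%, 34.4% and 31.5% of subunit C in Control and 27.7%, 40.8% and 33.0% in knockout kidneys, with overlap. No test was run on the shares. Reads shared between isoforms were looked for in the transcripts, and 8 of the 10 members had no window of 100 bases in common with another protein-coding gene. In Atp6v0a4 4.62% of windows were shared with D630045J12Rik and in Rhbg 0.77% with 1700021C14Rik, and with no isoform of the same family.

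**Figure D2:**
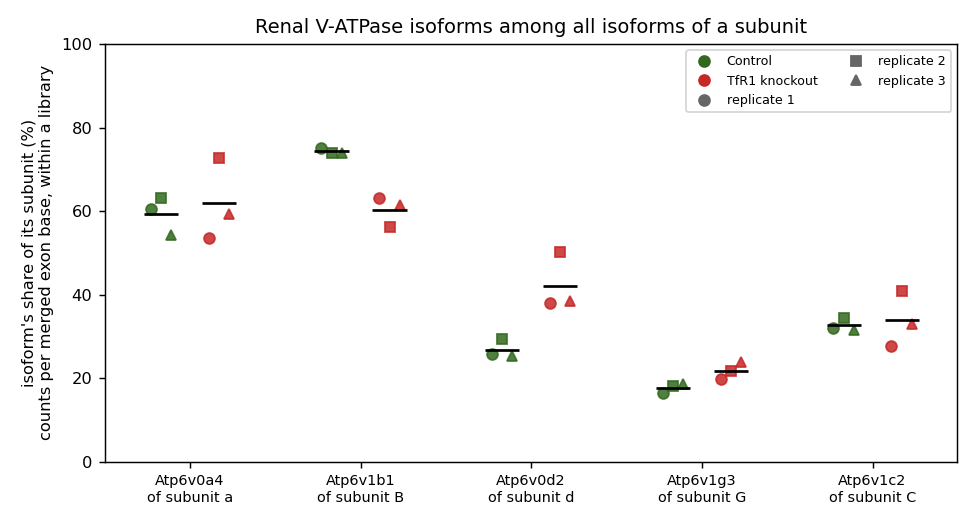
Share (%) of the renal isoform among all isoforms of its V-ATPase subunit, from counts per merged exon base within a library, for 5 subunits. Green marks Control and red TfR1 knockout, the shape gives the replicate and the black bar the mean of 3 libraries. The groups are apart for B1 (lower in knockout) and for d2 and G3 (higher), and overlap for a4 and C2.

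Rhcg (chromosome 7, 86738249 to 86762543, minus strand) encodes an ammonia channel of the apical and basolateral membrane of intercalated and principal cells. The 3 Control libraries, by replicate, held 5326, 5647 and 2774 normalized counts, and the 3 knockout libraries held 3422, 1878 and 2766. Control replicates 1 and 2 were above all other libraries, and Control replicate 3 fell within the knockout range. Means of 4582 ± 1574 and 2689 ± 775 (SD, n = 3 each) gave a log2 fold change of -0.77 (SE 0.33), which did not pass (DESeq2 adjusted p 0.104, edgeR adjusted p 0.179). It passed without Control replicate 3 (log2 fold change -1.03, DESeq2 adjusted p 0.0032) and without knockout replicate 1 (DESeq2 adjusted p 0.0357).

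Rhbg (chromosome 3, 88046796 to 88091132, minus strand) encodes the basolateral ammonia channel of the same segments. By replicate, Control kidneys held 1869, 2103 and 988 normalized counts and knockout kidneys 1525, 596 and 1237. The groups overlapped, and the low libraries were Control replicate 3 and knockout replicate 2, as for Foxi1. With means of 1654 ± 588 and 1119.7 ± 476 (SD, n = 3 each), the log2 fold change was -0.56 with a 95% interval from -1.34 to 0.22 (DESeq2 adjusted p 0.371, edgeR adjusted p 0.383). Its exons share 145 bases with 1700021C14Rik on the same strand, a gene that was not analysed here.

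Levels of different genes were compared as CPM (a gene's counts scaled to the library total) per kilobase of merged exons. In Control kidneys Atp6v1b1 was the most abundant member (148 ± 29.7, SD, n = 3), followed by Rhcg (109 ± 34.2), and their ranges over libraries overlapped. Atp6v0a4 (53.3 ± 10.9), Atp6v1g3 (48.1 ± 5.94), Slc4a9 (44.1 ± 4.49), Rhbg (38.7 ± 12.6), Slc26a4 (25.1 ± 4.21), Foxi1 (24.3 ± 10.7) and Atp6v0d2 (23.3 ± 4.07) came next, and in this run of 7 genes each overlapped its neighbour. Slc4a1 (15.4 ± 1.30) had the lowest mean, and its range (14.3 to 16.8) lay below that of Atp6v0d2 but within that of Foxi1 (11.9 to 31.2). The gap between Rhcg and Atp6v0a4 was the other place where neighbours were apart.

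In knockout kidneys Atp6v1b1 again had the highest and Slc4a1 the lowest mean, and the order between them differed. Atp6v1b1 (91.7 ± 9.11) and Atp6v0a4 (84.3 ± 26.8) overlapped at the top, followed by Rhcg (60.9 ± 21.4), Atp6v1g3 (52.3 ± 5.12) and Atp6v0d2 (43.8 ± 10.1), each overlapping its neighbour. Foxi1 (27.0 ± 12), Rhbg (25.1 ± 12) and Slc4a9 (18 ± 5.32) formed a lower run in which neighbours overlapped, and Atp6v0d2 lay apart above it. The exchangers Slc26a4 (10.3 ± 0.827) and Slc4a1 (4.39 ± 2.48) were the lowest, each apart from the gene above it.

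Other genes of intercalated cells, 15 in all, were read beside the members. In DESeq2 3 were higher, 1 was lower and 11 did not pass, with a median log2 fold change of 0.17. In edgeR 1 was higher and 1 lower. Oxgr1, the 2-oxoglutarate receptor of type B cells, fell from 1284 ± 127 to 464 ± 50.8 normalized counts (log2 fold change -1.47, DESeq2 adjusted p 4.31e-14, edgeR adjusted p 0.00389). Spink8, a protease inhibitor, rose from 631 ± 48.1 to 1381 ± 72.3 (log2 fold change 1.13, DESeq2 adjusted p 1.26e-11, edgeR adjusted p 0.00505). The membrane-bound carbonic anhydrase Car15 (log2 fold change 0.91, DESeq2 adjusted p 0.00709) and Slc4a8 (log2 fold change 0.67, DESeq2 adjusted p 0.0434), a sodium-driven bicarbonate exchanger of type B cells, were higher in DESeq2 and not in edgeR (adjusted p 0.0683 and 0.108).

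Of 20 other V-ATPase subunits and accessory proteins, most of them used in every cell, 18 could be tested. In DESeq2 2 were higher (Tcirg1 and Atp6v0a1) and 1 was lower, and in edgeR 1 was higher and 1 lower, with a median log2 fold change of 0.09 (DESeq2). The lower gene was Atp6v0e2, an isoform of the small V0 subunit e (log2 fold change -1.24, DESeq2 adjusted p 0.00136, edgeR adjusted p 0.0487). Atp6v0c, which encodes the proteolipid ring, was listed at 0 in every library. The reason was not tested, so the 0 is not read as absent RNA.

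**Figure D3:**
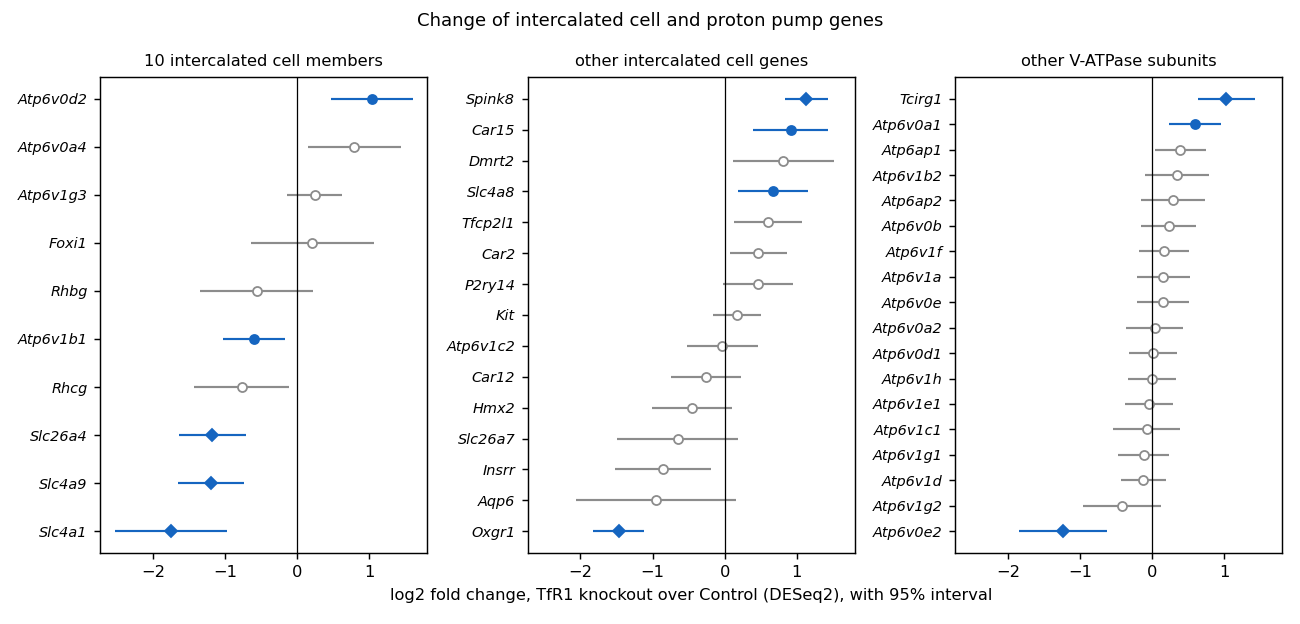
Log2 fold change of TfR1 knockout over Control (DESeq2, with 95% intervals) for the 10 members, 15 other intercalated cell genes and 18 other V-ATPase subunits. Filled blue points passed at an adjusted p under 0.05, diamonds also passed in edgeR and open grey points did not pass. Among the members Slc4a1, Slc4a9 and Slc26a4 lie at the lower end, and Atp6v0d2 is the only blue point to the right of 0.

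The neighbours of intercalated cells in the collecting duct are the principal cells, which take up water and sodium. Of 12 principal cell and collecting duct genes 5 were higher and 7 did not pass, with a median log2 fold change of 0.65, and edgeR called 2 higher (Aqp2 and Fxyd4). Aqp2, the vasopressin-regulated water channel, had 5747, 5581 and 2409 normalized counts in the Control kidneys, by replicate, and 17805, 50719 and 23564 in the knockout kidneys. Its log2 fold change was 2.74 (SE 0.44, DESeq2 adjusted p 4.92e-08, edgeR adjusted p 0.0255). Aqp3, Fxyd4 and Gata3 had the next largest changes among the 5. Of 7 genes of the ureteric lineage 6 did not pass and 1 was lower, the bud tip ligand Wnt11 (log2 fold change -2.62, DESeq2 adjusted p 5.03e-10), with a median of -0.09.

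Foxi1 was set beside Aqp2 as a ratio within a library. Aqp2 had the largest change of the 12 principal cell genes, so the ratio describes these 2 genes and not the principal cell list. The log2 ratio was -2.05, -2.05 and -2.26 in Control replicates 1 to 3, which were close together although both genes were low in replicate 3. It was -3.61, -6.19 and -3.90 in knockout replicates 1 to 3, all below Control. The difference of the means was -2.44 (-2.12 ± 0.12 against -4.56 ± 1.41, SD, n = 3 each), and -1.64 without knockout replicate 2.

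**Figure D4:**
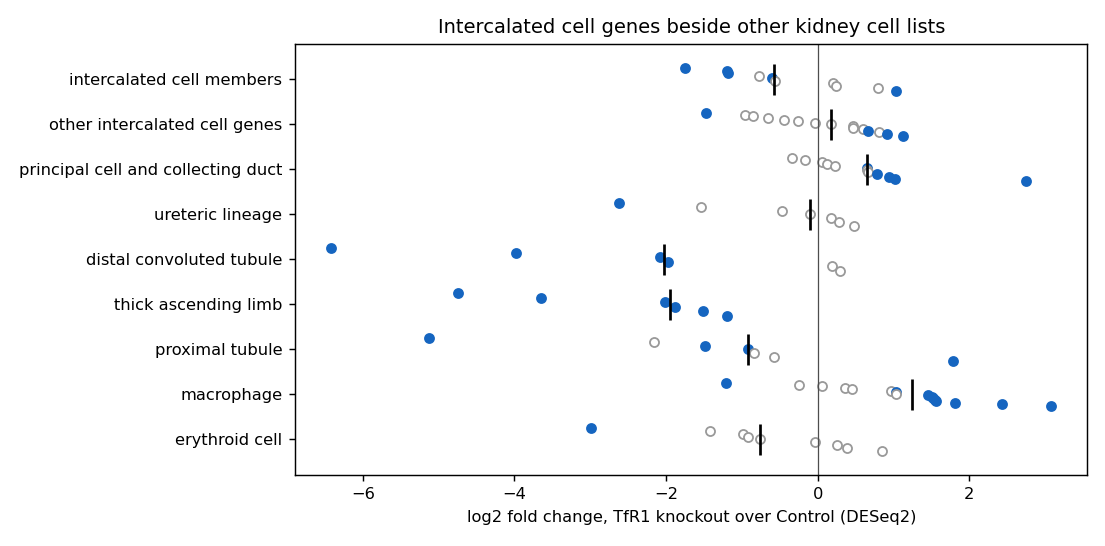
Log2 fold change of TfR1 knockout over Control (DESeq2) for each tested gene of 9 lists. Filled blue points passed at an adjusted p under 0.05, open grey points did not, and the black bar is the list median. The members spread from -1.75 to 1.03 around a median of -0.58. It lies between the medians of the principal cell genes (0.65) and the thick ascending limb genes (-1.95). The list medians run from -2.02 (distal convoluted tubule) to 1.25 (macrophage). Those of the erythroid genes (-0.76) and the proximal tubule genes (-0.92) are nearest to that of the members.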

How the data were processed

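Per the labels, whole-kidney RNA was made into Illumina TruSeq libraries. The deposited values are raw counts per gene, with no normalization. The submitters' processing notes name CASAVA 1.8.2, Trimmomatic, TopHat2 2.0.11, HTSeq and mm9. The HTSeq version, strand setting and annotation are not given in the sources used here. Replicates are labelled as separate biological samples.

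DESeq2 1.42.0 (R 4.3.3; Wald test, median-ratio size factors, Benjamini-Hochberg adjustment, independent filtering at 0.05) compared 3 knockout with 3 Control libraries, without covariates, for the 16509 genes whose mean normalized count reached 3.51. edgeR 4.0.16 (quasi-likelihood, TMM) is given beside it. Other alternatives were limma-voom (limma 3.58.1), other size factors, filters, a replicate block and fits without 1 library. Code was tested on simulated data, on which DESeq2 made a larger share of false calls than edgeR, so calls made by DESeq2 alone are less firm. Positions and exon lengths came from an mm9 GENCODE annotation. The members, lists and tests were chosen with earlier results of these data known. All members were named, from other lists at most 4 passing genes with the largest changes and the isoform partners, genes that overlap a member, and the 5 genes most like Foxi1 among those whose mean normalized count reached 100.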

Additional observations from a re-analysis of the deposited data

How the results depend on the processing

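Over 14 alternatives, Slc4a1, Slc26a4 and Slc4a9 kept their direction and passed in all 14. Of 140 member values, 124 kept direction and call, 11 lost the call, 4 gained it and 1 turned (Foxi1, from -0.14 without Control replicate 3 to 0.50 without knockout replicate 2). The 11 were Atp6v0d2 under edgeR and limma-voom and Atp6v1b1 under 9 settings, including edgeR (adjusted p 0.106), limma-voom (0.116) and no filter on low counts (0.0542). The causes were not tested.

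edgeR called 493 genes higher and 428 lower, and limma-voom 485 and 456, against 1277 and 1186. Both called 0 members, 1 other intercalated cell gene and 1 other V-ATPase subunit higher. For principal cell genes edgeR called 2 higher and limma-voom 3, and limma-voom called 0 other V-ATPase subunits lower. Total-count scaling moved the median of all genes from 0.01 to -0.10 and gave 996 higher and 1407 lower genes (41.4% higher, against 51.8%). No member changed sign under any scaling, and the median of the other V-ATPase subunits was -0.01 there.

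Leaving out 1 library gave 664 to 1531 genes higher and 575 to 1674 lower, with the fewest without Control replicate 1 and the most without knockout replicate 1. Members higher ranged from 1 to 2 and lower from 3 to 5, other intercalated cell genes higher from 1 to 4 and lower from 1 to 3, other V-ATPase subunits higher from 1 to 2, principal cell genes higher from 3 to 5, and ureteric genes lower from 1 to 2. The members' median ranged from -0.80 to -0.41 and the log2 ratio of Foxi1 to Aqp2 from -2.92 to -1.64 as a difference between groups. The share of B1 differed by -15.5 to -12.0 percentage points, that of d2 by 11.4 to 17.5 and that of G3 by 2.9 to 5.0, alternatives chosen after seeing the data, while those of a4 (-2.9 to 6.6) and C2 (-2.3 to 4.3) changed sign.

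Same-numbered libraries did not deviate together (r -0.04, -0.01 and 0.08 over 13153 genes), so they were treated as unpaired. The paper describes the controls as wild-type littermates, and which libraries shared a litter is not known here. Replicate numbers need not mark litters, so these values cannot show whether kidneys were paired by litter. Fitted with a replicate block, 1085 genes were higher and 1087 lower, with 2 members higher (Atp6v0a4, adjusted p 0.0132), 3 other intercalated cell genes lower and 2 ureteric genes lower. Under the block Atp6v1b1 did not pass (adjusted p 0.0571). With 3 kidneys per group, the spread between kidneys and not the depth limits the precision.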
